A study of Mus musculus with 12 samples.

Results

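The genes of the calcium-activated BK and SK channels and of the sodium-activated potassium channels were described across 4 groups of mouse brain tissue. Members were chosen by symbol from the table of normalized counts and comprise Kcnma1, Kcnmb2, Kcnmb4, Kcnn1, Kcnn2, Kcnn3, Kcnt1 and Kcnt2, which are 8 of 15759 entries in the table. All 8 were present, and all 8 had a mean of at least 10 normalized counts, the minimum for testing that 15369 genes reached. Cortex and cerebellum came from SCA1 KI mice and from their wild-type (WT) littermates, all C57BL/6J and 12 weeks of age, with 3 libraries in each of the 4 groups. SCA1 KI mice model spinocerebellar ataxia type 1, and their genotype, Atxn1 154Q/2Q, places a tract of 154 glutamines in the ataxin-1 of 1 allele, under the regulators of the gene itself, in every cell type that uses it. The tissues were dissected whole, so each value averages over all cell types of the region, and fewer cells of a type cannot be told apart from less RNA per cell. The labels give male mice, whereas the methods of the study give males and females for all experiments. The cerebellar libraries came from an earlier dataset of the same laboratory, so that region and experiment cannot be told apart in any comparison of cortex with cerebellum.

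Potassium channels that open on intracellular calcium or sodium set the length of the spike, the pause after it and the regularity of firing. BK channels are built from the pore subunit of Kcnma1 and open on calcium and depolarization together, and the beta subunits Kcnmb2 and Kcnmb4 change their gating, the former by closing the pore with an inactivation domain and the latter by slowing activation in neurons. SK channels (Kcnn1, Kcnn2 and Kcnn3, encoding SK1, SK2 and SK3) sense calcium through bound calmodulin and carry the afterhyperpolarization that follows a spike, and SK2 and BK are known to keep Purkinje cells of the cerebellum firing as pacemakers. Kcnt1 (Slack) and Kcnt2 (Slick) encode relatives of the BK pore that are activated by sodium.

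Reads on genes ranged from 34103546 to 39927889 per cortex library and from 29520855 to 51311309 per cerebellum library. The deposited columns give each library its region, its genotype and a letter or number of its own, by which the libraries are named here (cortex WT B, C and D, cortex SCA1 KI A, E and F, cerebellum WT 2, 4 and 6, cerebellum SCA1 KI 1, 3 and 5). Nothing links these names to the numbered animals of the labels. Markers of the cerebellum (Pcp2 of Purkinje cells and Gabra6 of granule cells) and of the cortex (Tbr1) were each high in the labelled region. Atxn1, the targeted gene, had an LFC (log2 fold change, SCA1 KI minus WT) of −0.31 in cortex libraries (adjusted p = 0.132) and of 0.079 in cerebellar libraries (adjusted p = 0.837), and counts per gene do not show the length of its repeat. Tests were made with limma on log2(normalized count + 1) over all 12 libraries, with Benjamini-Hochberg adjustment over the 15369 tested genes. Genes were called where the adjusted p was under 0.05 and the LFC exceeded 0.25 in either direction. On this scale, changes of genes with few counts come out smaller than they are.

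Ataxin-1 is lengthened in this model by CAG codons, and among the members the Kcnn3 coding sequence itself holds a long stretch of them, which is shown for that reason. In the mouse reference (GENCODE vM21, GRCm38) the stretch lies in coding exon 1 of Kcnn3, at chr3:89520646-89520708 on the plus strand. It has 21 codons, of which 18 are CAG or CAA, the codons of glutamine, and the capitals mark its longest unbroken run of 7 CAG codons (codons 67 to 73).
Kcnn3 CAG stretch: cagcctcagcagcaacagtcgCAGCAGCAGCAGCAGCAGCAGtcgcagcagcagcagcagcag
Counting CAG and CAA together, the longest run of glutamine codons was 5 in Kcnn2 (4 CAG and 1 CAA), 2 in Kcnmb4, Kcnn1, Kcnt1 and Kcnt2, and 1 in Kcnma1 and Kcnmb2. Counts per gene carry no information on the length of the Kcnn3 stretch in these mice.

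Among the members, Kcnt2 had the largest difference between the regions and, in the cerebellum, the largest LFC between the genotypes (−1.17). That LFC stood at the lowest counts of the members, and its call was lost under 4 of 21 alternatives. In the cortex Kcnma1 had the largest LFC (−0.62), and Kcnt2 (−0.52) was not called. The 250 bases before the RefSeq start of Kcnt2 (GRCm38.p6, chr1:140245468-140245717, plus strand) are given with CpG dinucleotides in capitals. They hold 10 CpG dinucleotides and 61.6% G and C, and no annotated exon of Kcnt2 in GENCODE vM21 overlaps them.
Kcnt2 upstream: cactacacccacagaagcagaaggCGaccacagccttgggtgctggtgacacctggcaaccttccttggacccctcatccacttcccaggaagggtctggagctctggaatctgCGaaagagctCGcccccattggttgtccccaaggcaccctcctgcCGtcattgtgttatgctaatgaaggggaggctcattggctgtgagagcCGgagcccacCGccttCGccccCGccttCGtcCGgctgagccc
RefSeq windows of 300 bases around the start (250 before and 50 after) were at hand for 6 of the 8 members, 7 windows in all. Ataxin-1 forms a complex with the repressor Capicua, whose octamers TGAATGAA, TCAATGAA, TGAATGGA and TCAATGGA were searched on both strands. These letters occurred in 0 of the 7 windows and in 3.84% of 32851 windows of the same length over all genes, which says nothing of binding elsewhere.

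The levels of the members were compared per kilobase of annotated exons (the merged exons of each gene), which takes no account of which transcripts were present. In the WT cortex the order was Kcnmb4 with 769 ± 81.3 normalized counts per kb (SD, n = 3), Kcnt1 with 515 ± 63.9, Kcnma1 with 449.7 ± 17.1, Kcnt2 with 299 ± 27.7, Kcnn2 with 158 ± 6.51, Kcnn1 with 141 ± 5.40, Kcnn3 with 86.0 ± 10.5 and Kcnmb2 with 57.3 ± 3.72. In the WT cerebellum Kcnt1 led with 1015 ± 148 per kb (SD, n = 3), ahead of Kcnmb4 with 510.0 ± 50.2, Kcnma1 with 437 ± 19.2 and Kcnn2 with 175 ± 7.96, and Kcnt2 was the lowest with 10.5 ± 5.19. Kcnn1, Kcnn3 and Kcnmb2 lay between at 69.3 ± 14.8, 46.3 ± 3.57 and 26.7 ± 8.66 per kb. Per kilobase, the neuronal BK beta subunit Kcnmb4 thus stood above the BK pore gene in both WT regions, and Slick went from the fourth place in the cortex to the last in the cerebellum.

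**Figure D1:**
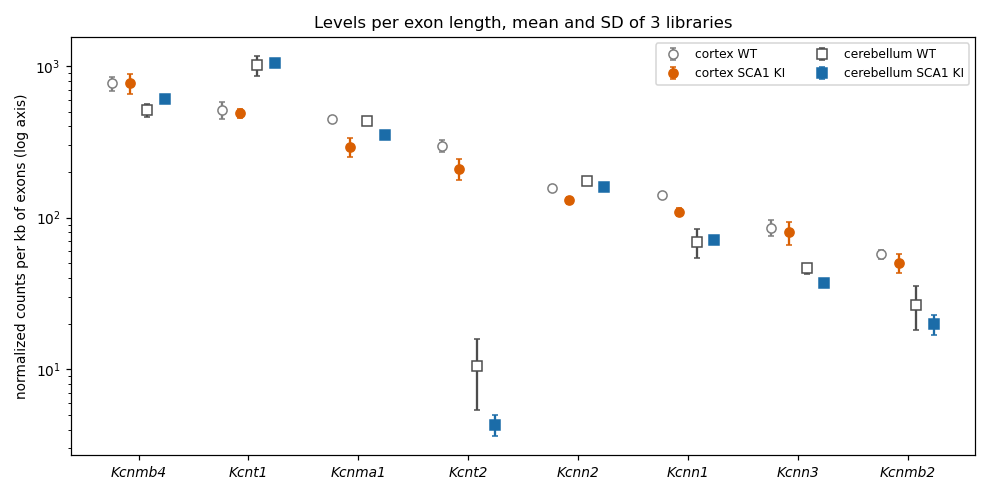
Normalized counts per kilobase of exons on a log axis for the 8 members, as mean and SD of 3 libraries in each group (circles for cortex, squares for cerebellum, open for WT, filled for SCA1 KI). Kcnt2 shows the widest gap between the regions, with 299 per kb in the WT cortex against 10.5 in the WT cerebellum, and Kcnt1 is the member with the highest cerebellar level.

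Between the WT regions 5 members were called higher and 1 lower in the cortex, where 61.7% of all tested genes were called (31% higher, 30.7% lower), so that such calls are common. The mean normalized count of Kcnt2 was 28.4 times as high in the WT cortex as in the WT cerebellum (LFC, cortex minus cerebellum, 4.92, SE 0.26, adjusted p = 3.62e-09). The other members called higher in the cortex were Kcnmb2 with an LFC of 1.14 (SE 0.20), Kcnn1 with 1.04 (SE 0.13), Kcnn3 with 0.89 (SE 0.12) and Kcnmb4 with 0.59 (SE 0.11), all with adjusted p of 0.000418 or less. Kcnt1 was the member called lower, at 50.8% of its cerebellar level (LFC −0.98, SE 0.11, adjusted p = 3.03e-06). Kcnma1 and Kcnn2, the pore genes of BK and SK2, were not called between the WT regions. For Kcnma1 the LFC was 0.040 (SE 0.088, adjusted p = 0.703), or 0.22 after adjustment for gene length and GC content (adjusted p = 0.00973). For Kcnn2 it was −0.15 (SE 0.064, adjusted p = 0.0558), or −0.18 with edgeR (adjusted p = 0.0300) and −0.24 after that adjustment (adjusted p = 0.0188). These alternative LFCs were still under the limit of 0.25 in size. Among SCA1 KI mice the same comparison called all 8 members, 5 higher and 3 lower in the cortex (62.4% of all tested genes were called, 32% higher and 30.5% lower), with LFCs of −0.26 for Kcnma1 (adjusted p = 0.0180) and −0.29 for Kcnn2 (adjusted p = 0.00137). The Kcnma1 value was 0.026 after adjustment for gene length and GC content, and its call was lost without cortex library A or F or cerebellum library 1 or 3 (LFCs of −0.17, −0.24, −0.25 and −0.23). That of Kcnmb4 (LFC 0.34) was lost after the same adjustment (0.20, adjusted p = 0.0840) and without cortex library A (0.22) or cerebellum library 3 (0.29), and that of Kcnn2 without cortex library F (−0.247).

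The 4 group means of each member could be put in order, which gave 24 pairs of neighbours, and 9 of these pairs differed at an adjusted p under 0.05. For Kcnma1 the order was WT cortex, WT cerebellum, SCA1 KI cerebellum and SCA1 KI cortex, and among its neighbours the SCA1 KI groups differed (adjusted p = 0.0180). For Kcnn2 the order was WT cerebellum, SCA1 KI cerebellum, WT cortex and SCA1 KI cortex, and of these steps only the last passed (adjusted p = 0.00961). In Kcnmb2, Kcnmb4, Kcnn1, Kcnn3 and Kcnt1 the step between the regions was the sole neighbouring pair that differed. Kcnt2 differed at the step between the regions (LFC 4.40 between SCA1 KI cortex and WT cerebellum, adjusted p = 1.28e-08) and at the step between the cerebellar genotypes.

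**Figure D2:**
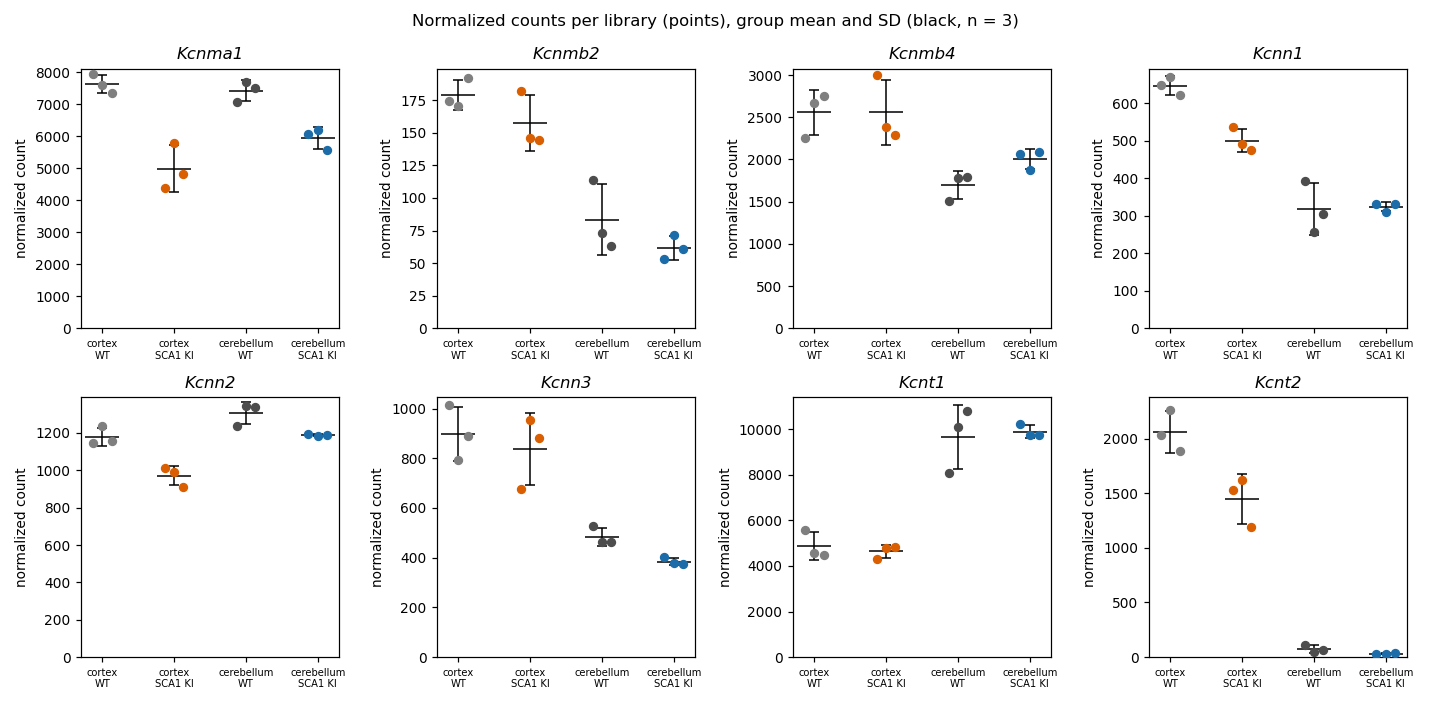
Normalized counts of the 8 members in each of the 12 libraries (points), with the group mean and SD (black, n = 3), on axes that start at 0. The 3 SCA1 KI cortex libraries lie below the 3 WT cortex libraries for Kcnma1, Kcnn1, Kcnn2 and Kcnt2, and the cerebellar Kcnt2 values are near the bottom of the cortical scale.

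The comparison of SCA1 KI with WT in the cortex asks how mutant ataxin-1 relates to transcript levels in this region. In the SCA1 KI cortex 2 of the 8 members, Kcnma1 and Kcnn2, were called lower and 0 higher, where 15.6% of all tested genes were called, 10.8% lower and 4.82% higher. At an unadjusted p under 0.05 there were 3 such members, and the share of all tested genes at that looser cut was not counted. The LFC was negative for 8 of 8 members, or 7 with edgeR and with DESeq2 and 6 after adjustment for length and GC, and the median LFC was −0.24 beside −0.0028 over all tested genes.

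Kcnma1 (chr14:23289431-24014491, minus strand, GRCm38) encodes the BK pore. It had 7936, 7608 and 7357 normalized counts in WT cortex libraries B, C and D and 4375, 5792 and 4813 in SCA1 KI cortex libraries A, E and F. Every SCA1 KI value was below every WT value, as in 3 further members (Kcnn1, Kcnn2 and Kcnt2) and in 18% of all tested genes, while 0 members and 13% of all tested genes showed the reverse (30.9% in either direction). The LFC was −0.62 (SE 0.088, adjusted p = 0.000416), which is 65.0% of the WT level. It was called under all 21 alternatives, with LFCs from −0.73 to −0.46, the smallest in size being that adjusted for length and GC. Its WT libraries spread by 3.80% (coefficient of variation) and its SCA1 KI libraries by 14.5%, with library A the lowest and library E the highest. GENCODE lists 38 transcripts of Kcnma1, 31 of them coding, and the counts do not tell these apart.

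Neither BK beta subunit passed the test in the cortex. Kcnmb4 (chr10:116417861-116473878, minus strand) had 2248, 2668 and 2753 normalized counts in the WT libraries and 3002, 2383 and 2287 in the SCA1 KI libraries, and the groups overlapped. Its LFC was −0.0045 (SE 0.11, adjusted p = 0.984), a value whose sign changed under 6 alternatives. Kcnmb2 (chr3:31902507-32200180, plus strand) had 175, 171 and 192 normalized counts in WT and 182, 146 and 144 in SCA1 KI libraries, with library A of the SCA1 KI group inside the WT range (LFC −0.19, SE 0.20, adjusted p = 0.568). Per kilobase, the Kcnmb4 level was 1.45 to 1.91 times that of Kcnma1 in the WT cortex and 2.10 to 3.50 times in the SCA1 KI cortex. The highest ratio, 3.50, was that of library A. The ratio of the beta subunit to the pore did not overlap between the genotypes, and it was not tested. It draws on the same Kcnma1 values as the call given above, while Kcnmb4 itself overlapped. Kcnmb4 shares its locus with the annotated antisense genes Kcnmb4os1 and Kcnmb4os2, and whether reads were counted by strand is not given in the sources used here, so reads of these genes cannot be told apart.

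Among the SK genes, Kcnn2 (chr18:45268860-45686024, plus strand), which encodes SK2, had 1147, 1235 and 1154 normalized counts in the WT cortex and 1010.1, 991 and 913 in the SCA1 KI cortex. The groups did not overlap, and the LFC of −0.28 (SE 0.064, adjusted p = 0.00961) placed the SCA1 KI level at 82.4% of WT. This call was close to both limits. With the cortex fitted on its own the adjusted p was 0.0688, after adjustment for length and GC the LFC was −0.20 (adjusted p = 0.113), and without WT library C or SCA1 KI library F the LFC was −0.246 and −0.235, short of the limit of 0.25. Annotated genes on the opposite strand also overlap exons of Kcnn2 (A330093E20Rik and AC121957.1), Kcnma1 (4930519K11Rik), Kcnn1 (A230052G05Rik) and Kcnt2 (4930590L20Rik). Reads of these genes cannot be told apart either.

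Kcnn1 (chr8:70842049-70863258, minus strand), encoding SK1, had 649, 670 and 620.5 normalized counts in the WT cortex and 535, 490 and 475 in the SCA1 KI cortex. These values did not overlap either, and the SCA1 KI level was 77.3% of WT, with an LFC of −0.37 (SE 0.13) that missed the threshold (adjusted p = 0.0603). It passed with the cortex fitted on its own (adjusted p = 0.0385), with DESeq2 (adjusted p = 0.0267) and without cerebellum WT library 2 or 4 (adjusted p = 0.0118 and 0.0265), which hold the highest and the lowest of its WT cerebellar values. Kcnn3 (chr3:89520164-89675132, plus strand), encoding SK3 and carrying the CAG stretch shown above, had 1012, 794 and 889 normalized counts in WT and 677, 952 and 882 in SCA1 KI libraries. Its groups overlapped (LFC −0.11, SE 0.12, adjusted p = 0.601), and without SCA1 KI library A its LFC was 0.036. Per kilobase, the 3 SK genes summed to 375 to 392 in the WT cortex and 310 to 331 in the SCA1 KI cortex, while the share of Kcnn2 in that sum was 39.2% to 42.7% and 39.4% to 42.7%. The total was thus lower in each SCA1 KI library than in each WT library, and the share of SK2 overlapped. No test was made of these sums.

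Of the sodium-activated channels, Kcnt2 (Slick, chr1:140246158-140612067, plus strand) had 2036, 2264 and 1885 normalized counts in the WT cortex and 1530.5, 1624 and 1192 in the SCA1 KI cortex. The groups did not overlap, and the LFC of −0.52 (SE 0.26) did not pass (adjusted p = 0.208). The SE of Kcnt2 rests on all 12 libraries, and its coefficient of variation was 49.3% in the WT cerebellum against 9.25% in the WT cortex. With the cortex fitted on its own the same LFC passed (adjusted p = 0.0306), as it did without cerebellum WT library 2 (adjusted p = 0.0490). Kcnt1 (Slack, chr2:25863734-25918273, plus strand) had 5586, 4587 and 4489 normalized counts in WT and 4304, 4778 and 4829 in SCA1 KI libraries, an overlap with an LFC of −0.071 (SE 0.11, adjusted p = 0.695) that was 0.11 after adjustment for length and GC. Kcnt2 made up 33.4% to 40.5% of the Kcnt1 and Kcnt2 sum per kilobase in the WT cortex and 25.4% to 32.9% in the SCA1 KI cortex.

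**Figure D3:**
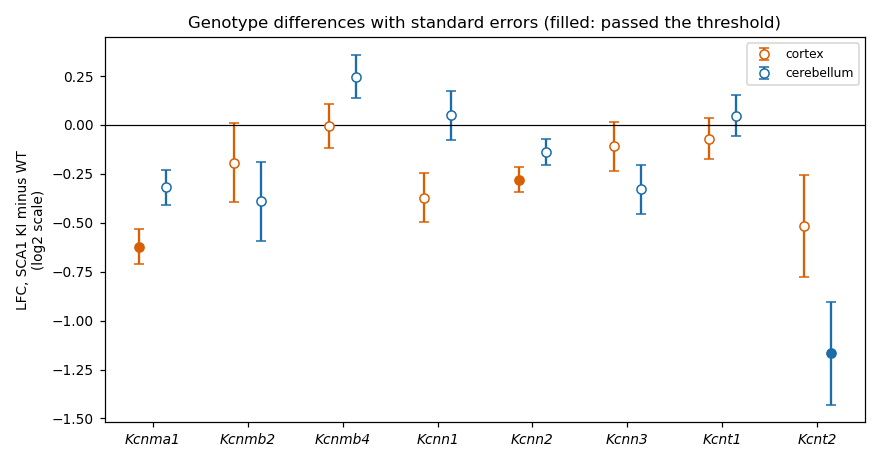
LFC of SCA1 KI against WT on the log2 scale for the 8 members in the cortex and the cerebellum, with standard errors from limma, and filled points where the threshold was passed. Kcnma1 (−0.62) and Kcnn2 (−0.28) passed in the cortex and Kcnt2 (−1.17) in the cerebellum.

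In the cerebellum, the region in which SCA1 has been studied most, 1 of the 8 members, Kcnt2, was called lower in SCA1 KI mice and 0 were called higher, where 5.36% of all tested genes were called, 4.44% lower and 0.917% higher. At an unadjusted p under 0.05 there were 4 members, again without a count of all tested genes at that cut. Of the 8 LFCs, 5 were negative, and the median was −0.23 beside −0.0049 over all tested genes. In 4 members (Kcnma1, Kcnn2, Kcnn3 and Kcnt2) each SCA1 KI value was under each WT value, and in 1 (Kcnmb4) each was above, which was so for 17.5% and 14.3% of all tested genes (31.8% in either direction).

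Kcnt2 had 112, 42.8 and 62.9 normalized counts in WT cerebellum libraries 2, 4 and 6 and 27.8, 26.1 and 34.9 in SCA1 KI cerebellum libraries 1, 3 and 5. These normalized counts did not overlap, library 2 was the highest of the WT libraries and library 4 the lowest, and the LFC was −1.17 (SE 0.26, adjusted p = 0.0204), which is 44.5% of the WT level. The reads behind them were 123, 35 and 54 in WT and 33, 38 and 36 in SCA1 KI libraries, and these overlapped. Scaling by depth thus separated the groups, with 29520855 to 38335590 reads on genes in WT and 36222298 to 51311309 in SCA1 KI cerebellum libraries. Without library 2 the LFC was −0.80 and was still called (adjusted p = 0.0351). The call was lost without SCA1 KI library 1 (adjusted p = 0.0812), without SCA1 KI library 3 (adjusted p = 0.0881), without WT library 6 (adjusted p = 0.0519) and with the cerebellum fitted on its own (adjusted p = 0.0852). With edgeR and DESeq2 on the recovered reads the LFCs were −1.36 and −1.33, and both passed. Kcnt2 was the least abundant member in the cerebellum, and its share of the Kcnt1 and Kcnt2 sum per kilobase was 0.58% to 1.88% in WT and 0.37% to 0.49% in SCA1 KI libraries. Its partner Kcnt1 had 8067, 10074 and 10780 normalized counts in WT and 10209.5, 9729 and 9734 in SCA1 KI libraries, with the SCA1 KI values inside the WT range (LFC 0.047, SE 0.11, adjusted p = 0.884).

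For Kcnma1 the cerebellar values were 7066, 7701 and 7507 normalized counts in WT and 6084, 6212 and 5565 in SCA1 KI libraries. The genotypes did not overlap, and the LFC of −0.32 (SE 0.088) stood just outside the threshold (adjusted p = 0.0553), at 80.1% of the WT level. It passed with edgeR (adjusted p = 0.0444), DESeq2 (adjusted p = 0.0151), the cerebellum on its own (adjusted p = 0.0195), adjustment for length and GC (LFC −0.27, adjusted p = 0.0241) and without cortex SCA1 KI library A or E (adjusted p = 0.0207 and 0.0139). Kcnmb4 was the member whose SCA1 KI libraries all lay above WT, with 1503, 1786 and 1797 normalized counts in WT and 2062, 1875 and 2087 in SCA1 KI libraries (LFC 0.25, SE 0.11, adjusted p = 0.276). Its level per kilobase was 1.09 to 1.22 times that of Kcnma1 in the WT cerebellum and 1.54 to 1.92 times in the SCA1 KI cerebellum. These ratios were not tested either. Kcnmb2 had 114, 73.3 and 62.9 normalized counts in WT and 53.1, 71.4 and 61.0 in SCA1 KI libraries, which overlapped (LFC −0.39, SE 0.20, adjusted p = 0.359). Without WT library 2 its LFC was −0.14.

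Kcnn2 made up most of the SK sum per kilobase in the cerebellum, with 55.0% to 64.2% in WT and 59.0% to 60.4% in SCA1 KI libraries. Kcnn2 had 1239, 1346 and 1337 normalized counts in WT and 1192, 1182 and 1188 in SCA1 KI libraries, without overlap and with an LFC of −0.14 (SE 0.064, adjusted p = 0.296). Kcnn3 had 527, 463 and 461 in WT and 402, 377 and 375 in SCA1 KI libraries, again without overlap (LFC −0.33, SE 0.12, adjusted p = 0.176). Neither passed under any of the 21 alternatives. Kcnn1 had 392, 258 and 304 normalized counts in WT and 332, 311 and 330.1 in SCA1 KI libraries, which lay within the WT range (LFC 0.050, SE 0.13, adjusted p = 0.899).

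The difference between the regions in the genotype effect was tested directly. None of the 8 members passed (0 called by limma, 0 by edgeR and 0 by DESeq2), where 8.15% of all tested genes were called, 4.89% lower and 3.26% higher. In limma 2 members had an unadjusted p under 0.05, a cut at which all tested genes were not counted. The members with the smallest p were Kcnma1, with a difference of −0.30 (SE 0.12, adjusted p = 0.177), and Kcnn1, with −0.42 (SE 0.18, adjusted p = 0.188). Each passed without 1 library, Kcnma1 without cortex SCA1 KI library E (−0.41, adjusted p = 0.0206) and Kcnn1 without cerebellum WT library 2 (−0.58, adjusted p = 0.0214). For Kcnt2 the difference was 0.65 (SE 0.37, adjusted p = 0.349). The calls of Kcnma1 and Kcnn2 in the cortex and of Kcnt2 in the cerebellum were therefore not shown to be particular to their regions.

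**Figure D4:**
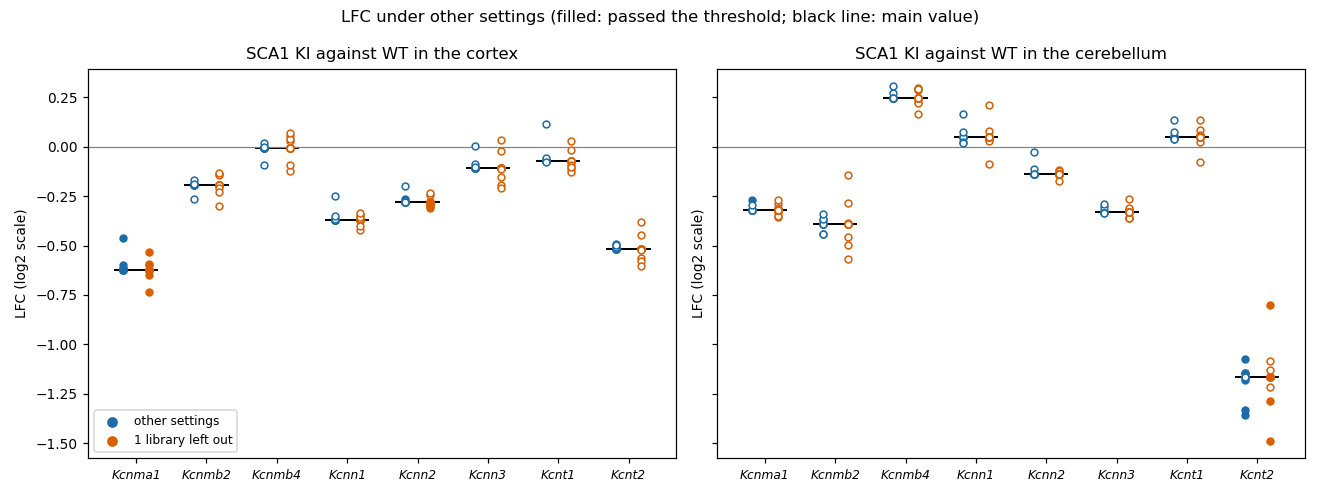
LFC of SCA1 KI against WT for each member under the 9 settings that keep all libraries (blue) and the 12 that leave out 1 library (orange), filled where the threshold was passed, with the main value as a black line. Kcnma1 in the cortex is filled throughout, from −0.73 to −0.46, and Kcnt2 in the cerebellum ranges from −1.49 to −0.80 with filled and open points.

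The remaining subunits and the ion sources and partners of these channels were taken from fixed lists. Their counts stand beside all tested genes, of which 10.8% were called lower and 4.82% higher in the cortex. In the cerebellum these shares were 4.44% and 0.917%. Of 8 further BK, SK and Slo subunits, 4 had a row, and Kcnmb3, Kcnn4, Lrrc26 and Lrrc52 were not analysed here. In the cortex 1 of the 4 was called lower, Lrrc38, a gamma subunit that shifts the voltage range of BK (LFC −0.55, SE 0.14, adjusted p = 0.0142). In the cerebellum 1 of the 4 was called lower, Lrrc55, another gamma subunit (LFC −0.80, SE 0.21, adjusted p = 0.0466), with 327, 186 and 202 normalized counts in WT libraries 2, 4 and 6 and 143, 145 and 111 in SCA1 KI libraries 1, 3 and 5.

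Among 12 calcium sources, 5 were called lower and 0 higher in the cortex, beside 10.8% and 4.82% of all tested genes. The median LFC of the 12 was −0.35. Those with the smallest p were Cacna1i, a T-type calcium channel (LFC −0.85, adjusted p = 6.41e-05), Itpr1, the IP3 receptor of the endoplasmic reticulum (LFC −0.82, adjusted p = 0.000155), and Ryr1, a ryanodine receptor (LFC −0.94, adjusted p = 0.00169). Itpr1 also stands in the Purkinje cell marker list. In the cerebellum 1 of the 12 was called lower and 1 higher, namely the T-type channel Cacna1h (LFC −1.35, adjusted p = 0.00428) and the L-type channel Cacna1d (LFC 0.33, adjusted p = 0.0436). Of 5 sodium sources, 2 were called lower in the cortex, the voltage-gated channels Scn8a (LFC −0.65, adjusted p = 0.000163) and Scn1a (LFC −0.49, adjusted p = 0.000384). In the cerebellum 2 were called lower, Scn3a (LFC −1.63, adjusted p = 0.00183) and Scn1a (LFC −0.29, adjusted p = 0.0246), and 1 higher, the sodium leak channel Nalcn (LFC 0.27, adjusted p = 0.0109). Of 4 regulators that bind these channels, Phactr1, a partner of Slack (LFC −0.50, adjusted p = 0.000323), and Fmr1, which also binds Slack (LFC −0.27, adjusted p = 0.0250), were called lower in the cortex, and 0 of 4 were called in the cerebellum.

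The members were set beside the other potassium channel genes. Of 72 further tested genes with a Kcn symbol (without the Kcnip genes), 31 (43.1%) were called lower and 0 higher in the cortex. This stood beside 10.8% lower and 4.82% higher over all tested genes, and 2 of the 8 members called lower. The median LFC was −0.38 for these genes and −0.24 for the members. In the cerebellum 24 of the 72 (33.3%) were called lower and 1 higher, beside 4.44% and 0.917% of all tested genes. There 1 of the 8 members was called lower, and the medians were −0.37 for the 72 genes and −0.23 for the members. The difference between these lists was not tested.

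Genes with the most similar pattern to each member were found as those with the smallest root mean square difference between log2 profiles over the 12 libraries, each centred on its own mean. For Kcnma1 these were Syt7, a calcium sensor of vesicle release (difference 0.074 log2 units, beside a spread of 0.27 for Kcnma1 about its own mean), and Arap2 (0.085). For Kcnn2 they were the nuclear receptor gene Ppard (0.059) and the myosin gene Myh10 (0.065), beside a spread of 0.16. Kcnt2 was closest to Mpped1 (0.14) and to Dlgap2, a scaffold of the postsynaptic density (0.22), beside a spread of 2.68. The nearest genes were Pdgfra and Slc30a10 for Kcnn3, Gm715 and Hes1 for Kcnn1, Mga and Brpf1 for Kcnt1, Taf11 and Tbcc for Kcnmb4, and Lurap1l and Ly86 for Kcnmb2. These pairs share their libraries, and for members with a large regional step the step makes up most of the pattern.

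Markers of cell types and neighbouring tissues moved with genotype as well. Over all tested genes, 10.8% were called lower and 4.82% higher in the cortex. In the cortex the summed level of 7 markers of excitatory neurons was 29141 to 32568 normalized counts in WT and 22148 to 26724 in SCA1 KI libraries (2 of 7 called lower), that of 7 forebrain interneuron markers 12154 to 13076 and 8094 to 9181 (1 of 7 called lower), and that of 5 astrocyte markers 50263 to 55335 and 33383 to 43584 (3 of 5 called lower). Midbrain markers were higher in SCA1 KI cortex, with sums of 169 to 285 in WT and 788 to 1522 in SCA1 KI cortex libraries and 3 of 5 tested called higher, and Shox2 was at 0 in all WT cortex libraries. These values stood beside the lower cortical Kcnma1, Kcnn1, Kcnn2 and Kcnt2 levels, and their part in them was not tested.

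WT cortex library B stood apart from libraries C and D in markers of neighbouring tissues. Its sum was 9276 for the striatum list against 4248 and 4447, 1546 for the hippocampus list against 702 and 705, 1676 for the choroid plexus list against 233 and 229, and 125999 for the oligodendrocyte list against 78575 and 72896. Library B was the highest WT cortex library for Kcnma1, Kcnn3 and Kcnt1 and the lowest for Kcnmb4 and Kcnn2. Without it, Kcnma1 (LFC −0.59, adjusted p = 0.00264) and Kcnn2 (LFC −0.30, adjusted p = 0.0172) were still called lower in the SCA1 KI cortex, and the LFCs of Kcnt1, Kcnn3 and Kcnmb4 were 0.029, −0.020 and −0.094, none of which passed. SCA1 KI cortex library F stood apart from libraries A and E as well. Its sum was 5220 for the thalamus list against 2608 and 2779, and 28016 for the cerebellar interneuron list against 18667 and 19851. Library F was the lowest SCA1 KI cortex library for Kcnn1, Kcnn2 and Kcnt2. Without library F, Kcnma1 was still called (LFC −0.60) and Kcnn2 was not (LFC −0.235). The part of these tissue markers was not tested.

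In the cerebellum the midbrain markers were lower in SCA1 KI libraries, with sums of 632 to 1111 in WT and 188 to 246 in SCA1 KI libraries. Of 5 tested, 4 were called lower, where 4.44% of all tested genes were. The forebrain interneuron markers had sums of 800.1 to 1332 and 271 to 300.1 (3 of 7 called lower, Dlx5 at 0 in all cerebellar libraries), and the oligodendrocyte markers 163466 to 250154 and 139174 to 139535 (0 of 5 called). WT library 2 was the highest for all 3 lists and for Kcnt2, Kcnmb2, Kcnn3 and Kcnn1, and the lowest WT library for granule and Purkinje cell markers, Kcnt1, Kcnmb4, Kcnma1 and Kcnn2. Without this library Kcnt2 was still called lower, at an LFC of −0.80, as given above. Whether the marker differences had a part in the Kcnt2 result was not tested.

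**Figure D5:**
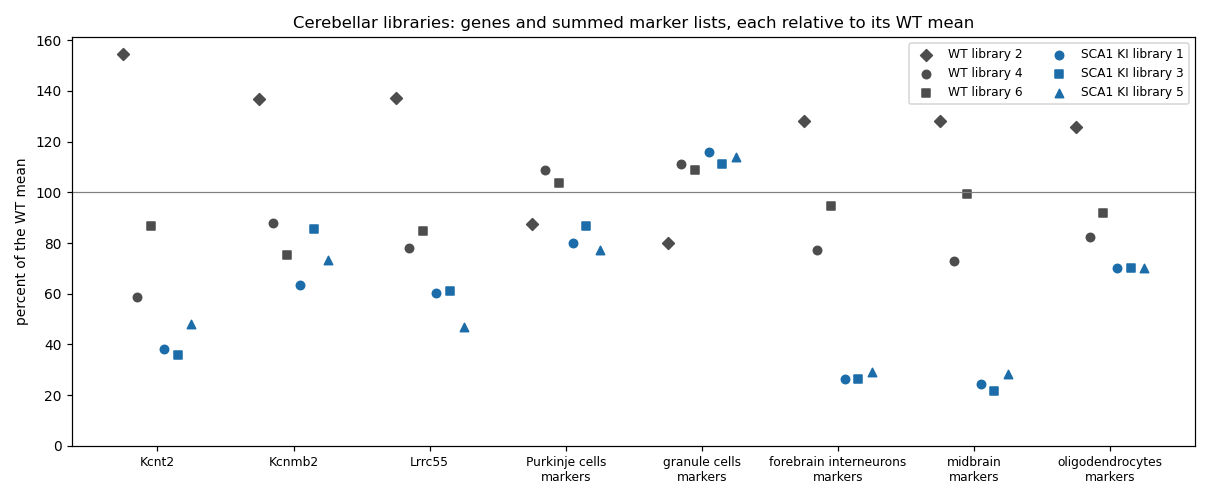
Each of the 6 cerebellar libraries as percent of the WT mean (line at 100) for Kcnt2, Kcnmb2, Lrrc55 and the summed markers of 5 cell types or tissues. WT library 2 (diamonds) is at 155% for Kcnt2, 128% for midbrain markers and 79.9% for granule cell markers, and the SCA1 KI libraries are at 35.9% to 48.0% for Kcnt2 and 21.7% to 28.3% for midbrain markers.

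The other marker lists were counted in the same way. Over all tested genes, 10.8% were called lower and 4.82% higher in the cortex, and 4.44% and 0.917% in the cerebellum. In the cortex 4 of 8 Purkinje cell markers, 2 of 7 granule cell markers, 1 of 6 cerebellar interneuron markers and 1 of 5 thalamus markers were called lower and 1 of 8 Purkinje cell markers higher, and 0 were called of the striatum, hippocampus, choroid plexus, oligodendrocyte, microglia, smooth muscle and endothelium lists. In the cerebellum 1 Purkinje cell, 1 striatum, 1 hippocampus, 1 astrocyte and 1 microglia marker, 2 cortical excitatory neuron markers and 4 of 5 thalamus markers were called lower, 1 cortical excitatory neuron marker was called higher, and 0 were called of the granule cell, cerebellar interneuron, choroid plexus, smooth muscle and endothelium lists. The summed thalamus markers were nevertheless higher, at 19384 to 20730 in WT and 22721 to 23873 in SCA1 KI cerebellum libraries. In the WT cortex that sum was only 2537 to 3040, so the list as a sum is not particular to thalamus in cerebellar libraries. Summed Purkinje cell markers were 337195 to 420283 in WT and 297543 to 335100 in SCA1 KI cerebellum libraries. Sums were also lower for cerebellar interneuron markers (53769 to 55288 and 47625.5 to 49530) and astrocyte markers (96669 to 99595 and 86923.5 to 90285). Those of granule cell markers went the other way (122193 to 169946 and 170146 to 176957). Cerebellar Kcnma1 and Kcnn2 were lower without being called, and the part of these markers in their values was not tested. Choroid plexus markers varied from 1120 to 75007 among the SCA1 KI cerebellum libraries.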

How the data were processed

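RNA with poly-A tails from whole cortex and cerebellum was measured in 12 libraries. The authors aligned paired-end reads to mm10 with STAR, obtained gene counts with featureCounts and scaled them with DESeq2 (versions, strand setting and counting annotation are not given in the sources used here). They deposited 1 table of normalized counts, a signal per gene and library that equals reads divided by the size factor of the library. Whole reads were recovered for 100% of the values (tolerance 0.01) and used for count tests. Entries with a mean under 10 normalized counts (390 of 15759) were left out.

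The remaining 15369 were tested by limma 3.58.1 (R 4.3.3, moderated with a trend) on log2(normalized count + 1), with 4 group means. Adjusted p are Benjamini-Hochberg values over all tested genes. In the main fit they test a difference of group means against 1 estimate of spread per gene, shared by all 12 libraries (3 a group). Alternatives comprised other pseudocounts (0.5 and 5), a minimum mean of 0 or 100, separate fits per region, centring on the median, edgeR 4.0.16, DESeq2 1.42.0, adjustment for gene length and GC content (14639 genes), and fits with each library left out. The fits were also run on simulated data with changes planted in the SCA1 KI cortex group only. Those changes were larger than any cortical LFC of the members, so that run does not bear on calls of this size. Annotation came from GENCODE vM21 (15009 of 15758 symbols matched) and promoter windows from RefSeq on GRCm38.p6.

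Members, lists (other subunits, calcium sources, sodium sources, regulators, other Kcn genes, and markers of 15 cell types and tissues) and the rule for named genes (all members, at most 3 called genes per list and region by smallest p, the 2 genes of most similar pattern, and Atxn1) were chosen with earlier results of these data known. Scn2a and Drd1 were matched by the older symbols Scn2a1 and Drd1a. A further list, of partners of the SK channels, is not reported here.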

Additional observations from a re-analysis of the deposited data

How the results depend on the processing

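Over 21 alternatives, of which 12 left out 1 library each, 771 of 816 member values kept their direction and their side of the threshold, 16 lost and 14 gained a call, and 15 changed sign. Where the library left out belonged to a group outside the comparison, the LFC could not change, and only its adjusted p could. The share of values kept is therefore not a measure of stability. Each value that changed sign had not passed, except that of Kcnma1 between the SCA1 KI regions, which was 0.026 after adjustment for length and GC. Kcnmb4 in the cortex had LFCs of 0.018 with edgeR and 0.00021 with DESeq2, and from −0.13 to 0.071 with 1 library left out. Kcnt1 in the cortex was at 0.11 and Kcnn3 at 0.0034 after adjustment for length and GC, and with 1 library left out they ranged from −0.13 to 0.029 and from −0.21 to 0.036. In the cerebellum Kcnt1 ranged from −0.076 to 0.13 and Kcnn1 from −0.090 to 0.21 with 1 library left out. The regional difference in the genotype effect ranged from −0.20 to 0.0049 for Kcnt1 and from −0.049 to 0.38 for Kcnmb2. The causes were not tested.

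Members called lower in the cortex numbered 1 after adjustment for length and GC, 3 with DESeq2 and 3 with the cortex fitted on its own, against 2. With the cortex on its own Kcnn1 and Kcnt2 were called beside Kcnma1, and Kcnn2 was not. In the cerebellum members called lower numbered 2 with edgeR, DESeq2 or adjustment for length and GC, where Kcnma1 joined Kcnt2. With 1 library left out they numbered 1 to 4 in the cortex, 0 to 2 in the cerebellum, 1 to 3 between the SCA1 KI regions and 0 to 1 for the difference between the regions. Over all tested genes, those called higher in the cortex were 393 with the region on its own, against 741, and those called higher in the cerebellum were 220 with the region on its own, 231 with DESeq2 and 537 after adjustment for length and GC, against 141. With that adjustment the split of lower and higher calls was 1311 and 1029 in the cortex (1661 and 741 without) and 586 and 537 in the cerebellum (683 and 141 without). Leaving out 1 library gave 356 to 806 lower and 43 to 195 higher genes in the cerebellum, and 471 to 841 lower and 312 to 571 higher for the difference between the regions. Of the neighbouring groups in the order of levels, 6 to 11 pairs differed. No paired analysis was possible because the library columns carry none of the replicate numbers of the labels.

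The lowest counts were those of Kcnt2 and Kcnmb2 in the cerebellum, at 26.1 to 114 normalized counts per library, and these values had the least depth behind them.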
